A study of Homo sapiens with 18 samples.

Results

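Mitosis and spindle genes encode the proteins that take a cell from the end of DNA replication through chromosome segregation to division. The set was a list of 46 gene symbols, made up of mitotic kinases and cyclins, spindle checkpoint, kinetochore and anaphase genes, mitotic kinesins, spindle and midzone proteins, and 2 genes of the mitotic chromosome. All 46 were found among the 61806 gene identifiers of the deposited table, and all 46 passed the filter on low values. The rule that lists them uses no measured value, but the members were chosen with earlier results of these data known. They were measured by poly(A)-selected RNA sequencing in LoVo and DLD-1 cells, which are human colorectal cancer lines. Each line had 3 groups of 3 libraries: cells that overexpressed LIN28B and received alpelisib at 5 µM, cells that overexpressed LIN28B with no treatment, and cells with the genotype EV and no treatment. LIN28B binds precursors of the let-7 microRNAs and keeps them from being processed, and alpelisib inhibits the p110 alpha subunit of phosphoinositide 3-kinase (PI3K). EV was taken as the empty vector. The labels gave neither the length of treatment, the solvent control, the promoter that drives LIN28B, nor whether each line was a clone. No EV cells with alpelisib were among the samples used here. The series title names LIN28B, the PI3K/AKT pathway and a therapeutic vulnerability, and the groups address how LIN28B, and PI3K inhibition on top of it, move gene expression.

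Of the labels, the genotype was checked on LIN28B itself. It averaged 154 TPM (transcript abundance scaled to a fixed total per library) in LoVo-labelled cells with LIN28B and alpelisib, 687 TPM with LIN28B and 4.15 TPM in EV. In DLD-1 it averaged 143 TPM with LIN28B and alpelisib, 462 TPM with LIN28B and 1.76 TPM in EV. Colon epithelial markers had group means of 2.88 to 5236 TPM, and the immune, fibroblast and endothelial genes PTPRC, COL3A1, PECAM1 and CDH5 were at 0.122 TPM or less in every library, while the fibroblast collagen COL1A1 had group means of 1.52 to 11.8 TPM. Across all genes tested, the untreated libraries labelled LoVo LIN28B correlated with untreated DLD-1 LIN28B libraries at Pearson's r of 0.964 to 0.968, and with LoVo EV libraries at 0.890 to 0.918. LoVo EV libraries correlated with DLD-1 EV libraries at 0.886 to 0.918. The untreated libraries labelled LoVo LIN28B are therefore called LoVo-labelled. Those with alpelisib carry the same line label and are called so too, although no such correlation is given for them. Comparisons of both groups with LoVo EV are given as comparisons of labels. The share of TPM from mitochondrial transcripts was 24.0, 23.1 and 14.5% in LoVo EV libraries and 7.24 to 15.8% elsewhere.

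Entry into mitosis is driven by cyclin-dependent kinase 1 with its cyclins, the spindle is then built by motor proteins and microtubule-binding proteins, and the spindle checkpoint holds back anaphase until each chromosome is attached. Most of these genes are transcribed late in the cell cycle: the DREAM and MuvB complexes, with B-MYB and FOXM1, act through a promoter element called the CHR, and NF-Y binds CCAAT boxes beside it. Their RNA is widely used as a readout of proliferation. In bulk RNA, fewer dividing cells and less of these transcripts per dividing cell cannot be told apart.

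The promoters of 5 members are shown because they carry the CHR and the CCAAT box in different arrangements, and because BUB1, CDC25C and KIF11 were among the genes that moved furthest. Each runs 5′ to 3′ over the 120 bases before the RefSeq start (GRCh38.p14), with every TTTGAA or its reverse complement TTCAAA (the CHR core) and every CCAAT or its reverse complement ATTGG in capitals.
CCNB2 (chr15:59105026-59105145, plus strand): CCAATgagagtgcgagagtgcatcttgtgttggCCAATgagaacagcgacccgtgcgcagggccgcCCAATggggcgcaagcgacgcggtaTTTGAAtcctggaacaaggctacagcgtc
PLK1 (chr16:23678769-23678888, plus strand): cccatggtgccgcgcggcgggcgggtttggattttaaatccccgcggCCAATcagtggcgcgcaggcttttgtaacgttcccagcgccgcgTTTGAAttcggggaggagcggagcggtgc
KIF11 (chr10:92593010-92593129, plus strand): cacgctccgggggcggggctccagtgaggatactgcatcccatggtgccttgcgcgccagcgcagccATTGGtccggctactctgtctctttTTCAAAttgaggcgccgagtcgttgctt
CDC25C (chr5:138331805-138331924, minus strand): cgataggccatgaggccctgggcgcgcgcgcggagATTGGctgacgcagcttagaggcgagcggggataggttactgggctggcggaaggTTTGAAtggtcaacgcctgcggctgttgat
BUB1 (chr2:110678064-110678183, minus strand): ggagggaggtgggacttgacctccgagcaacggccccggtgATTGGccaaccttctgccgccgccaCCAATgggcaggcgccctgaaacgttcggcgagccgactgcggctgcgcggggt
CCNB2 encodes cyclin B2, PLK1 encodes Polo-like kinase 1, KIF11 encodes the kinesin that pushes spindle poles apart, CDC25C encodes a phosphatase that activates CDK1, and BUB1 encodes a spindle checkpoint kinase. The CCNB2 window holds 3 CCAAT boxes followed by 1 CHR. In KIF11 both elements are on the opposite strand, and in BUB1 the window holds CCAAT boxes and no CHR core.

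Promoter sequence from 250 bases before to 50 bases after the start was found for 39 of the 46 members in the RefSeq table, and not for AURKA, BIRC5, BUB3, FOXM1, TPX2, TTK or UBE2C. The CHR core was present in 28 of these 39 promoters (71.8%), against 15.6% of all 27305 promoters in the table and 10.1% of the 11757 promoters of genes tested. A CCAAT box was present in 30 of 39 member promoters (76.9%), against 35.6% of all promoters. Both were present in 23 members (59.0%), against 6.15% of all promoters, and 16 members (41.0%) had a CCAAT box 2 or more times, against 11.1% of all promoters. Both strands were searched, and the last base of CCAAT can be the first base of TTTGAA. Of the 35 CHR matches in members, 28 (80.0%) lay between 70 bases before and 50 bases after the start, against 32.6% of the 5001 matches in all promoters, a window set after the positions had been seen. Of the 60 CCAAT matches, 53 lay within 160 bases before the start. The edge of this window is the position of a TOP2A match, and no share over all promoters was computed for it. A match is a description of the letters and not evidence that a factor was bound.

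**Figure D1:**
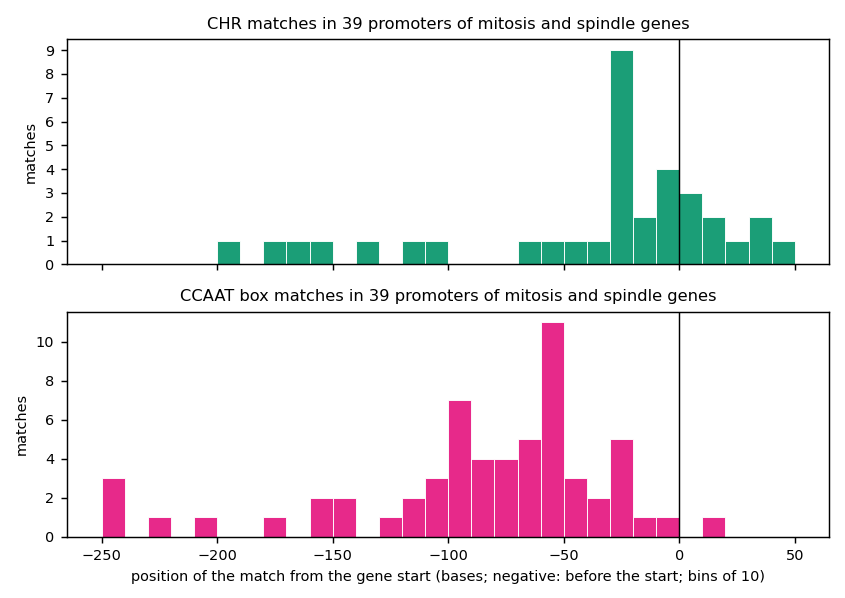
Histograms of the positions of CHR matches (top) and CCAAT matches (bottom) in the promoters of the 39 members with a RefSeq entry. The horizontal axis is the distance from the transcription start in bases, and the vertical axis is the number of matches. CHR matches gather around the start, 28 of 35 between 70 bases before and 50 after it, and 53 of 60 CCAAT matches lie within 160 bases before it.

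All levels below are TPM, which divides by gene length, so levels may be set beside each other between genes. Over the 18 libraries, the median level ran from 5.49 TPM for KIF14, a kinesin of cytokinesis, and 6.24 TPM for CENPE, the kinetochore motor, to 158 TPM for BUB3, a checkpoint protein. UBE2C (the ubiquitin-conjugating enzyme of the anaphase-promoting complex, APC/C) at 133 TPM, PTTG1 (securin) at 132 TPM and TOP2A (topoisomerase II alpha) at 109 TPM followed. UBE2C and PTTG1 have near-identical copies elsewhere in the genome, so reads may have been split between copies and their values are uncertain. Exons of 15 members overlap a gene on the opposite strand in the GENCODE annotation, and no source used here says whether counting used strand.

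Summed over the 46 genes, the level was highest in DLD-1 cells with LIN28B. In the DLD-1 LIN28B libraries with alpelisib the sum was 2007, 1973 and 2083 TPM, in the untreated LIN28B libraries 3392, 3196 and 3232 TPM, and in the EV libraries 2525, 2538 and 2420.3 TPM. These 3 groups did not overlap, and LIN28B with alpelisib lay below EV. Under the LoVo label the sums were 1483, 1280.2 and 1189 TPM with LIN28B and alpelisib, 2803, 2556 and 2522 TPM with LIN28B and 1240.4, 1299 and 1588 TPM in EV. Here the untreated LIN28B libraries stood above all others, and the alpelisib and EV libraries overlapped. The means in DLD-1 were 2021 ± 56.2 TPM with LIN28B and alpelisib, 3273 ± 104 TPM with LIN28B and 2494 ± 64.4 TPM in EV (SD, n = 3 each). DLD-1 LIN28B had the highest group mean for 44 of the 46 genes and LoVo-labelled LIN28B for the other 2. The lowest group mean was in LoVo EV for 25 genes and in LoVo-labelled LIN28B with alpelisib for 21. Within groups, LoVo EV replicate 3, the LoVo EV library with the lowest mitochondrial share, was the highest of its group for 39 genes. LoVo-labelled LIN28B with alpelisib replicate 1 was the highest of its group for 34.

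**Figure D2:**
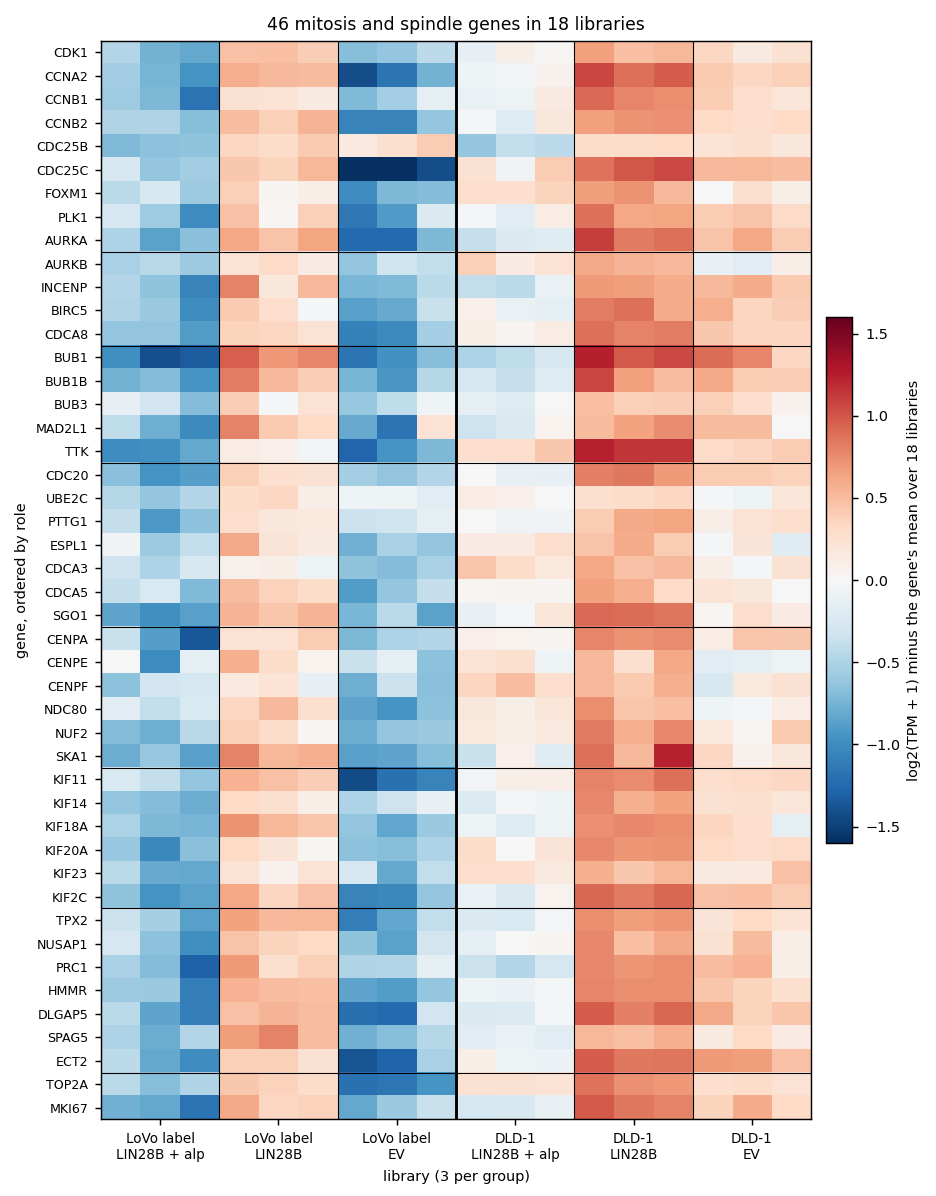
Level of the 46 genes (rows, ordered by role) in the 18 libraries (columns, 3 per group), as log2(TPM + 1) relative to the gene's mean over all libraries; colours saturate at the ends of the scale. DLD-1 LIN28B columns are the highest for most genes, and LoVo EV and LoVo-labelled LIN28B with alpelisib are low. LoVo EV replicate 3 is above the other 2 LoVo EV libraries for 39 genes. Averaged over the 46 genes, log2(TPM + 1) was 5.08 to 5.16 in DLD-1 LIN28B libraries with alpelisib. It was 4.30 to 4.64 in LoVo EV and 4.34 to 4.63 in LoVo-labelled LIN28B with alpelisib.

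LIN28B against EV in DLD-1 gave positive changes of varied size. All 46 genes had a positive log2 change, with a median of 0.43 and a range of 0.08 to 0.82, while the median over all 18537 genes tested was 0.02. By limma, 13 of the 46 rose at an adjusted p under 0.05 and none fell, where 1.21% of all genes tested were called higher. In 42 of 46 genes every LIN28B library was above every EV library, against 12.9% of all genes. The groups overlapped for BUB1B, MAD2L1, KIF23 and NUSAP1. Fold changes are differences of log2(TPM + 1), which understates changes of low genes, each given with its SE, and adjusted p-values come from limma with adjustment over all genes tested. Nothing in the labels says that replicates came from separate cultures, so p-values rest on the spread between libraries within groups. That spread was estimated over all 6 groups in 1 fit, and not from the compared groups alone.

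Of the 9 mitotic entry genes, 2 rose in DLD-1. FOXM1, the transcription factor of late cell cycle genes, had 52.6, 54.2 and 47.3 TPM in LIN28B libraries, against 32.3, 39.2 and 35.1 TPM in EV libraries. The groups did not overlap, and FOXM1 rose by 0.52 ± 0.12 (adjusted p = 0.0266, limma). CCNA2, cyclin A2, was the other, at 0.60 ± 0.13, adjusted p = 0.0261 by limma. CDK1 itself stood at 120.2, 106 and 110.0 TPM with LIN28B and 95.5, 83.4 and 89.7 TPM in EV, and its partner CCNB1 (cyclin B1) at 177, 163 and 159.5 TPM with LIN28B and 125, 115 and 108 TPM in EV. In both, every LIN28B library was the higher, but neither passed the test, with limma adjusted p of 0.117 and 0.0731. PLK1 had 85.5, 71.1 and 71.9 TPM in LIN28B and 61.4, 63.8 and 57.4 TPM in EV libraries, and AURKA, the centrosome kinase Aurora A, 99.2, 82.1 and 85.0 TPM with LIN28B and 62.8, 71.0 and 61.0 TPM in EV. These groups did not overlap either, and limma adjusted p was 0.546 for PLK1 and 0.104 for AURKA.

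Aurora B (AURKB), the kinase of the chromosomal passenger complex that corrects wrong spindle attachments, had 112, 108 and 105 TPM in LIN28B libraries and 67.1, 64.8 and 78.9 TPM in EV libraries. The lowest LIN28B library was above the highest EV library, and AURKB rose by 0.62 ± 0.10 (limma adjusted p = 0.00289). Among the 5 checkpoint genes only TTK, the kinase MPS1 that starts the checkpoint signal, was called (GRCh38 chromosome 6, 80003887 to 80042527, plus strand). TTK had 43.3, 40.8 and 40.7 TPM with LIN28B and 22.4, 23.0 and 24.1 TPM in EV, a gap with no overlap and the largest change of the 46 genes, 0.82 ± 0.12, adjusted p = 0.00147 by limma. BUB1 had 72.2, 59.7 and 62.8 TPM with LIN28B and 56.1, 51.9 and 37.8 TPM in EV, with no overlap, and did not pass (limma adjusted p = 0.197). Of the 7 anaphase and cohesion genes, 3 rose, namely CDC20, CDCA3 and SGO1. CDC20, the activator of the APC/C, had 120.2, 124 and 111 TPM in LIN28B libraries and 91.0, 91.2 and 88.5 TPM in EV libraries. SGO1, shugoshin, which protects cohesion at the centromere, had 21.6, 21.4 and 20.7 TPM with LIN28B and 11.3, 13.6 and 12.2 TPM in EV. Neither pair of groups overlapped, and the changes were 0.39 ± 0.08, adjusted p = 0.0202 and 0.74 ± 0.12, adjusted p = 0.00325 by limma.

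Kinetochore genes were called in 3 of 6 cases, NDC80 (0.55 ± 0.11, adjusted p = 0.0142), NUF2 (0.53 ± 0.12, adjusted p = 0.0312) and SKA1, all by limma. SKA1 had 15.9, 12.04 and 20.4 TPM in LIN28B libraries and 10.5, 8.59 and 9.34 TPM in EV libraries, without overlap, and rose by 0.68 ± 0.16 (limma adjusted p = 0.0378). CENPA, the histone H3 variant of centromeres, had 27.6, 26.4 and 27.1 TPM with LIN28B and 17.1, 21.8 and 21.4 TPM in EV and a limma adjusted p of 0.281. Of 6 kinesins, KIF11 and KIF18A rose. KIF11 had 49.9, 48.6 and 52.8 TPM with LIN28B and 34.7, 35.2 and 35.7 TPM in EV, again without overlap, at 0.51 ± 0.11, adjusted p = 0.0188 by limma. KIF18A, which positions chromosomes on the plate, changed by 0.59 ± 0.13, adjusted p = 0.0232. TOP2A, which untangles sister chromatids, had 169, 153 and 150.4 TPM in LIN28B libraries and 111, 114 and 109 TPM in EV libraries and rose by 0.50 ± 0.08 (limma adjusted p = 0.00418). MKI67, which encodes the Ki-67 protein that coats mitotic chromosomes, had 61.4, 55.6 and 53.8 TPM with LIN28B and 39.4, 46.5 and 38.4 TPM in EV, without overlap, and did not pass (limma adjusted p = 0.0896). None of the 7 spindle and midzone genes passed, although 35 of the 46 genes had an unadjusted p under 0.05. The count of 13 depended on single libraries: it was 5, 6 and 7 without EV replicate 1, 2 or 3, and 4, 8 and 7 without LIN28B replicate 1, 2 or 3. AURKB, TTK, SGO1 and TOP2A were called each time, and 22 genes were called on TPM recomputed without mitochondrial transcripts, an alternative added after seeing the data. HMMR, of the spindle and midzone list, was among the 22. A fit of the compared groups alone called 14 genes. It lost 6 of the 13 and gained 7 others, among them TPX2 of the spindle and midzone list.

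Under the LoVo label the same contrast was wider. Of 46 genes, 45 rose and none fell, where 40.3% of all genes tested were called higher, so a large part of the transcriptome moved with them. The median change was 1.03, with a range of 0.07 to 2.09, against 0.26 over all genes. In 45 genes every LoVo-labelled LIN28B library was above every LoVo EV library (41.3% of all genes), the exception being CDC25B, a phosphatase that activates CDK1 at the centrosome. Median-of-ratios scaling moved the median of all genes by -0.29. With it, 39 members were higher and 1, CDC25B, was lower, and UBE2C was at -0.02, against 0.34 without this scaling. Without the 2 EV libraries with over 20% mitochondrial TPM, an alternative added after seeing the data, 38 members were called. Mitochondrial share moved with these groups, and so did cell type markers. Of 7 colon epithelium markers, 6 were called higher, with a median of 1.94 on the log2 scale, and their summed level was 5848 to 6014 TPM in LoVo-labelled LIN28B and 4742 to 5322 TPM in LoVo EV libraries. The 5 fibroblast, immune and endothelial markers summed to 3.49 to 5.44 TPM with LIN28B and 9.19 to 14.3 TPM in EV, nearly all of it COL1A1, which was lower (-1.27 ± 0.25). The part of these values in the result was not tested.

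CDC25C changed most. It had 22.0, 20.9 and 23.7 TPM in LoVo-labelled LIN28B libraries, against 4.20, 3.91 and 5.39 TPM in LoVo EV libraries. The groups lay far apart, and CDC25C rose by 2.09 ± 0.13 (limma adjusted p = 1.67e-09; GRCh38 chromosome 5, 138285265 to 138338355, minus strand). CCNA2, at 1.64 ± 0.13, adjusted p = 3.22e-08, and AURKA followed among the mitotic entry genes. AURKA had 70.8, 63.1 and 71.5 TPM with LIN28B and 18.7, 18.6 and 27.5 TPM in EV, without overlap, and a change of 1.64 ± 0.14, adjusted p = 4.12e-08 by limma. CDK1 had 105, 106 and 99.8 TPM with LIN28B and 46.9, 49.0 and 56.5 TPM in EV, and CCNB1 112, 111 and 104 TPM with LIN28B and 57.6, 64.3 and 84.9 TPM in EV. Neither pair overlapped, at 1.02 ± 0.10, adjusted p = 3.04e-07 for CDK1 and 0.68 ± 0.14, adjusted p = 0.000786 for CCNB1. PLK1 had 64.3, 47.3 and 60.4 TPM in LoVo-labelled LIN28B and 20.4, 24.2 and 39.3 TPM in EV libraries, and FOXM1 42.8, 33.6 and 35.2 TPM with LIN28B and 15.7, 19.4 and 19.8 TPM in EV. Both rose without overlap, PLK1 by 1.05 ± 0.20 and FOXM1 by 0.98 ± 0.12.

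BUB1 led the checkpoint genes, all 5 of which rose (GRCh38 chromosome 2, 110637698 to 110678114, minus strand). It had 58.8, 48.8 and 52.1 TPM in LoVo-labelled LIN28B libraries and 12.7, 14.7 and 18.3 TPM in LoVo EV libraries, without overlap, a change of 1.75 ± 0.16, adjusted p = 1.03e-07 by limma. KIF11 led the 6 kinesins, which all rose. It had 42.0, 39.6 and 37.4 TPM with LIN28B and 9.86, 11.8 and 13.0 TPM in EV and a change of 1.70 ± 0.11, adjusted p = 1.44e-09. Again the lowest LIN28B library was above the highest EV library. TOP2A had 125, 119.8 and 113 TPM with LIN28B and 39.8, 40.7 and 47.5 TPM in EV, and MKI67 47.0, 38.6 and 39.6 TPM with LIN28B and 16.8, 19.8 and 23.7 TPM in EV. Both chromosome genes rose, by 1.47 ± 0.08 and 1.02 ± 0.13. AURKB had 85.1, 90.8 and 80.3 TPM with LIN28B and 47.0, 58.3 and 55.7 TPM in EV, CDC20 89.4, 82.6 and 81.0 TPM with LIN28B and 46.5, 43.9 and 49.0 TPM in EV, and CENPA 18.6, 18.6 and 21.2 TPM with LIN28B and 9.15, 10.7 and 11.0 TPM in EV. Each rose without overlap, CDC20 by 0.85 ± 0.08, AURKB by 0.66 ± 0.10 and CENPA by 0.86 ± 0.18. The 4 passenger complex, 7 anaphase, 6 kinetochore and 7 spindle and midzone genes were all called higher. The smallest rise among them was UBE2C, at 0.34 ± 0.08, adjusted p = 0.00235, and CDC25B had 75.2 ± 3.49 TPM with LIN28B and 71.5 ± 6.49 TPM in EV (SD, n = 3; limma adjusted p = 0.441).

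**Figure D3:**
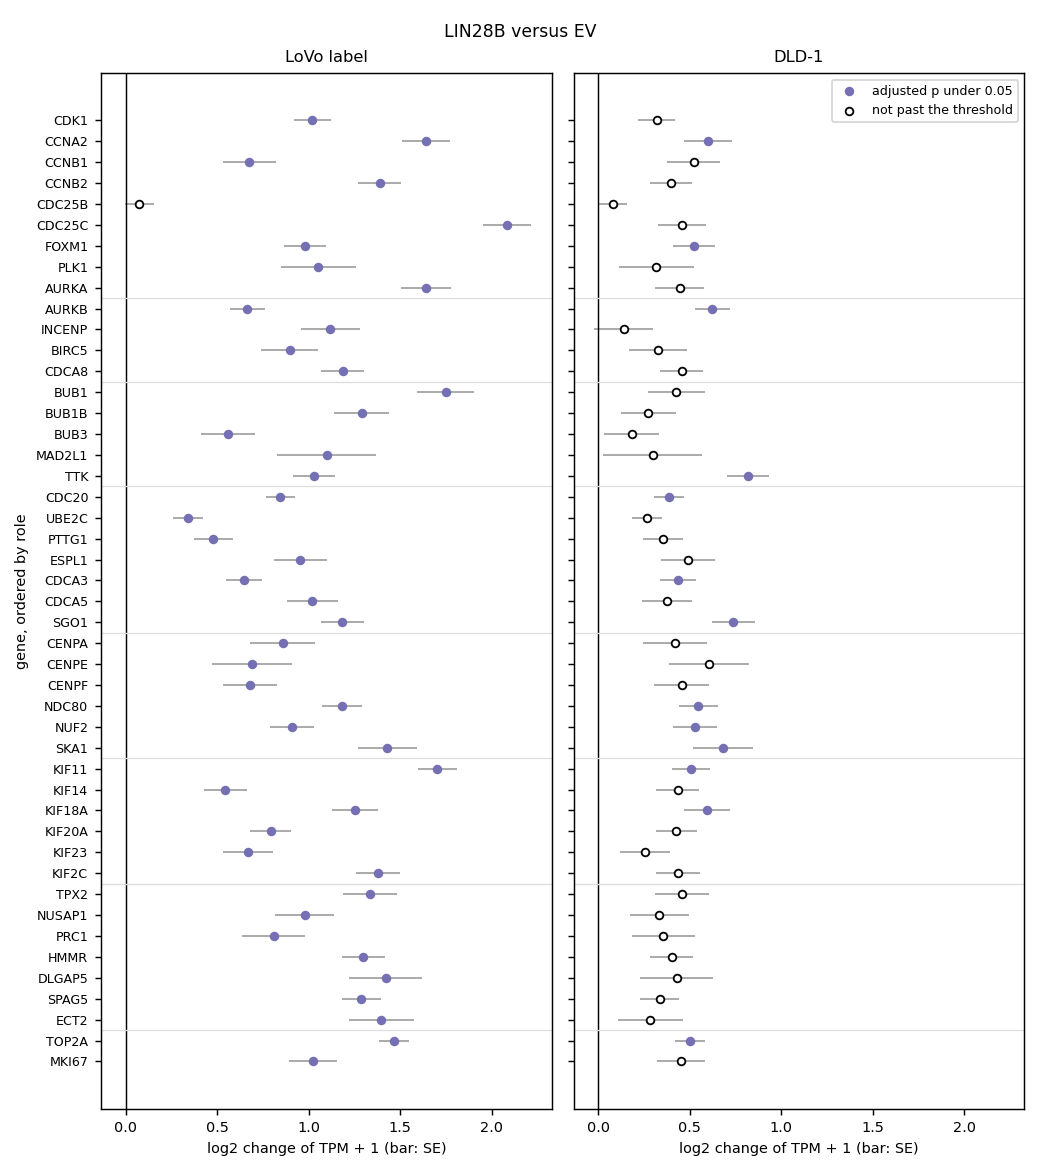
Log2 change of TPM + 1 in LIN28B relative to EV libraries for the 46 genes, ordered by role, under the LoVo label (left) and in DLD-1 (right); bars are SE, and filled points passed an adjusted p of 0.05 by limma (45 and 13 genes). Every point lies right of 0, and the LoVo-labelled changes are larger for all genes but CDC25B.

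The difference between the LIN28B contrasts was tested as an interaction. Of the 46 genes, 27 had a larger change under the LoVo label and none a smaller one (30.4% of all genes were called larger), with a median difference of 0.64. The largest differences were CDC25C at 1.63 ± 0.19, adjusted p = 4.03e-06, BUB1 at 1.33 ± 0.22, adjusted p = 0.000163, AURKA at 1.20 ± 0.19, adjusted p = 0.000108 and KIF11 at 1.20 ± 0.15, adjusted p = 1.00e-05, all by limma. Spindle and midzone genes were called in 6 of 7 cases, with PRC1, the midzone bundling protein, the exception. AURKB and TTK had differences of 0.04 ± 0.14 and 0.21 ± 0.16, which did not pass. Median-of-ratios scaling moved the median of all genes by -0.26 here and left 17 higher and 1 lower, and 13 were called without the 2 LoVo EV libraries of high mitochondrial share. Because the LoVo-labelled LIN28B libraries resembled DLD-1 LIN28B libraries more than LoVo EV libraries, a difference between lines and an effect of LIN28B cannot be told apart under this label.

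With alpelisib these genes were lower in LIN28B cells of both labels. In DLD-1, 41 of 46 fell and none rose, where 21.9% of all genes tested were called lower. The median change was -0.76, with a range of -1.48 to -0.13, against -0.09 over all genes. In 45 genes every treated library lay below every untreated one (31.6% of all genes), and only CENPF, a kinetochore and centromere protein, overlapped. The genes that did not pass were ESPL1 (separase), CDCA3, CENPE, CENPF and KIF23. All 9 mitotic entry, 4 passenger complex, 5 checkpoint, 7 spindle and midzone and 2 chromosome genes fell, with 5 of 7 anaphase, 4 of 6 kinetochore and 5 of 6 kinesin genes. Median-of-ratios scaling, which moved the median of all genes by 0.10, left 36 called, without FOXM1, AURKB, MAD2L1, UBE2C and NDC80. With each of the 6 libraries left out in turn, 34 of the 41 were called every time. FOXM1, MAD2L1 and UBE2C were also not called without the filter on low values. The mitochondrial share was 15.8, 14.8 and 10.6% in the treated and 10.3, 10.4 and 11.1% in the untreated libraries, and 38 genes were called on TPM without mitochondrial transcripts, an alternative added after seeing the data. LIN28B RNA was itself lower with alpelisib, with a log2 change of -1.68 ± 0.15 in DLD-1 and -2.15 ± 0.15 under the LoVo label, and its part in these falls was not tested. Of all genes tested, 9.05% were called higher and 21.9% lower in DLD-1, and 15.1% and 24.6% under the LoVo label. Beside these shares, 4 of 7 colon epithelium markers were higher and 1 lower in DLD-1, and 3 higher and 1 lower under the LoVo label. The part of these markers was not tested. Their summed level was 8271 to 8699 TPM with alpelisib and 6358 to 6892 TPM without in DLD-1, and 9786 to 11036 TPM with alpelisib and 5848 to 6014 TPM without in LoVo-labelled libraries.

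BUB1 fell most, to 20.7, 22.3 and 24.7 TPM in alpelisib libraries, against 72.2, 59.7 and 62.8 TPM in untreated LIN28B libraries. The change was -1.48 ± 0.16, adjusted p = 9.30e-06 by limma, and the treated libraries were also below every EV library given above. AURKA had 35.1, 38.8 and 40.0 TPM with alpelisib, against 99.2, 82.1 and 85.0 TPM without, a change of -1.20 ± 0.14, adjusted p = 1.73e-05. PRC1 had 47.7, 43.7 and 50.5 TPM with alpelisib and 104, 100.4 and 103 TPM without, a change of -1.10 ± 0.17, adjusted p = 0.000286. None of these groups overlapped. For the other genes named above, the untreated LIN28B values are those already given. CDK1 had 68.9, 81.0 and 76.9 TPM with alpelisib and CCNB1 87.4, 89.0 and 105 TPM, changes of -0.56 ± 0.10 and -0.83 ± 0.14. PLK1 had 45.6, 40.5 and 49.96 TPM and FOXM1 40.0, 39.6 and 42.0 TPM, changes of -0.74 ± 0.20 and -0.33 ± 0.12. FOXM1 changed least of the entry genes tested here by name, with a limma adjusted p of 0.0384.

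Among the chromosome and spindle genes, MKI67 had 24.9, 25.5 and 27.9 TPM with alpelisib, against 56.9 ± 3.98 TPM without (SD, n = 3), and TOP2A 109, 109.7 and 107 TPM with alpelisib, against 158 ± 10.2 TPM without. Both fell without overlap, by 1.10 ± 0.13 and 0.53 ± 0.08. KIF11 had 27.5, 30.2 and 30.6 TPM with alpelisib, CENPA 16.7, 16.4 and 16.2 TPM and CDC20 68.3, 62.9 and 62.4 TPM. By limma, KIF11 changed by -0.76 ± 0.11, adjusted p = 0.000112, CENPA by -0.68 ± 0.18, adjusted p = 0.00816 and CDC20 by -0.86 ± 0.08, adjusted p = 2.78e-06. AURKB had 95.8, 80.2 and 85.8 TPM with alpelisib and 112, 108 and 105 TPM without, a smaller change of -0.31 ± 0.10, adjusted p = 0.0218.

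Under the LoVo label all 46 genes fell with alpelisib, where 24.6% of all genes tested were called lower, with a median of -1.02 and a range of -2.05 to -0.39, against -0.06 over all genes. In all 46 every treated library was below every untreated one (30.4% of all genes). BUB1 again fell most, to 14.6, 10.6 and 11.3 TPM, against 58.8, 48.8 and 52.1 TPM in untreated LIN28B libraries, a change of -2.05 ± 0.16, adjusted p = 1.61e-07 by limma. SGO1 had 5.72, 5.10 and 5.56 TPM with alpelisib, against 16.6, 15.4 and 16.6 TPM without. SKA1 had 4.26, 4.97 and 4.01 TPM with alpelisib, against 14.9, 12.2 and 12.6 TPM without. SGO1 changed by -1.41 ± 0.12, adjusted p = 2.96e-07 and SKA1 by -1.39 ± 0.16, adjusted p = 9.09e-06, both without overlap. CDC25C had 13.3, 10.2 and 10.6 TPM with alpelisib, against 22.2 ± 1.41 TPM without (SD, n = 3), a change of -0.92 ± 0.13, adjusted p = 5.69e-05. The smallest change was in CDCA3, at -0.39 ± 0.10, adjusted p = 0.00467, and the calls of CENPE and CENPF were lost under median-of-ratios scaling.

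CDK1 had 54.5, 44.3 and 42.6 TPM in LoVo-labelled LIN28B libraries with alpelisib, CCNB1 63.4, 56.8 and 41.2 TPM, PLK1 38.2, 30.8 and 22.4 TPM and AURKA 32.2, 24.7 and 28.4 TPM. Each was below all untreated LIN28B libraries given above, with log2 changes of -1.13 for CDK1, -1.03 for CCNB1, -0.91 for PLK1 and -1.24 for AURKA. FOXM1 had 23.9, 27.1 and 21.4 TPM with alpelisib, AURKB 50.8, 53.7 and 48.4 TPM and CDC20 42.8, 34.9 and 36.6 TPM. FOXM1 fell by 0.60 ± 0.12, AURKB fell by 0.73 ± 0.10 and CDC20 fell by 1.13 ± 0.08. KIF11 had 23.7, 21.4 and 17.9 TPM with alpelisib, CENPA 12.1, 8.04 and 5.52 TPM, TOP2A 68.0, 57.2 and 65.9 TPM and MKI67 17.5, 16.9 and 13.0 TPM. These also lay below every untreated library, with changes of -0.89 for KIF11, -1.16 for CENPA, -0.90 for TOP2A and -1.35 for MKI67. In 34 of 46 genes replicate 1 was the highest of the 3 treated libraries.

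**Figure D4:**
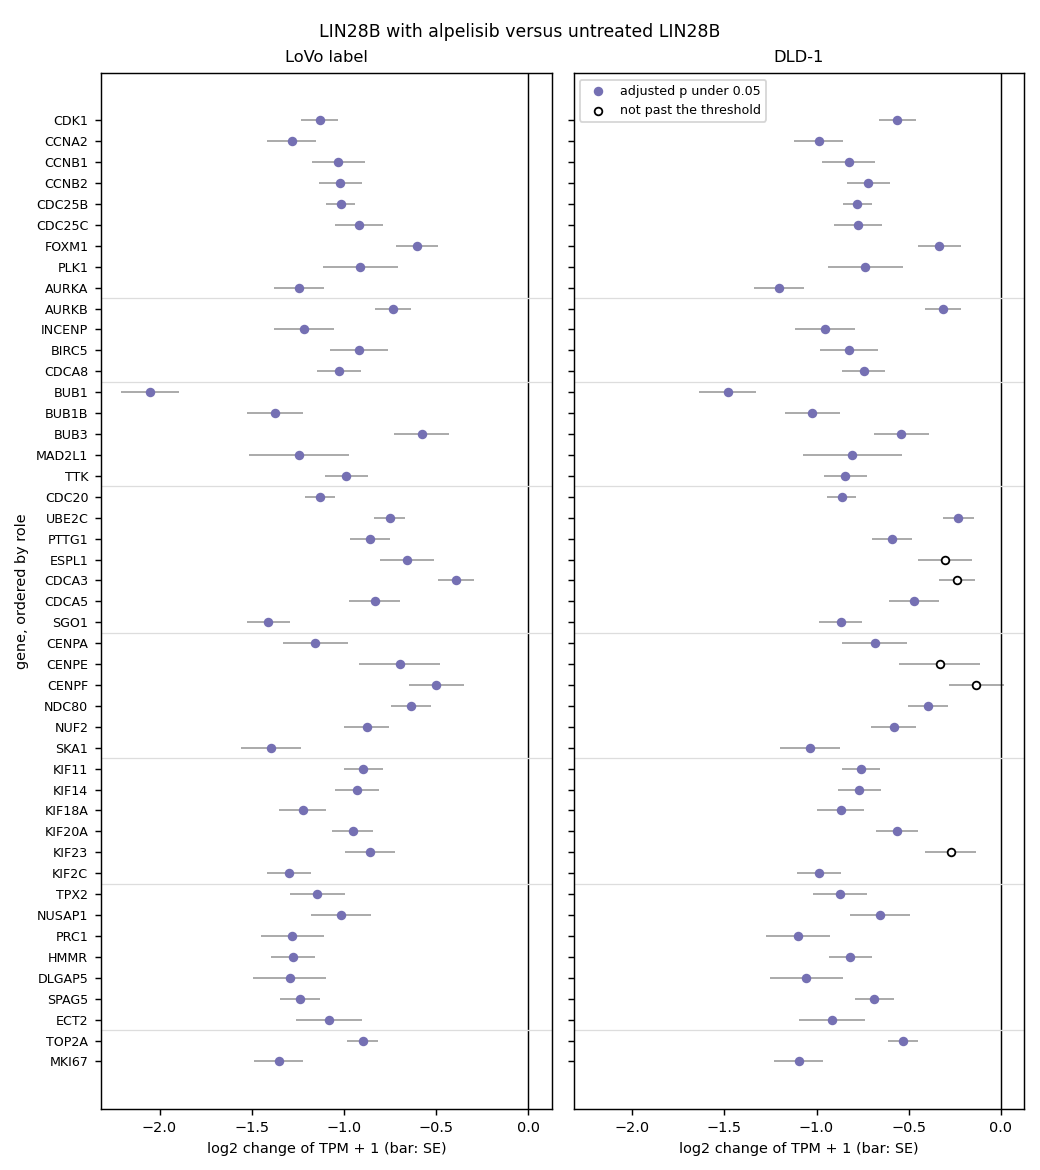
Log2 change of TPM + 1 in LIN28B libraries with alpelisib relative to untreated LIN28B libraries, by gene, under the LoVo label (left) and in DLD-1 (right), with SE bars and filled points for an adjusted p under 0.05 by limma (46 and 41 genes). BUB1 is the lowest point in both panels.

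The effect of alpelisib was not shown to differ between the labels. Untreated LoVo-labelled LIN28B libraries resembled DLD-1 LIN28B libraries more than LoVo EV libraries. Falls under both labels are therefore not shown to be falls in separate lines. All 46 differences, LoVo label minus DLD-1, were negative, with a median of -0.29, but none passed at an adjusted p of 0.05 by limma (0.847% of all genes did in either direction). At an unadjusted p under 0.05 there were 12. The nearest was UBE2C, at -0.52 ± 0.12, adjusted p = 0.0518, then CDK1, at -0.57 ± 0.14, adjusted p = 0.0791. Single settings brought 1 or 2 over the threshold. CDK1 and SPAG5, the spindle protein astrin, passed under median-of-ratios scaling. UBE2C passed without LoVo-labelled LIN28B replicate 3 and in a fit of the compared groups alone. CDK1 passed without LoVo-labelled LIN28B with alpelisib replicate 1 and on TPM without mitochondrial transcripts.

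LIN28B cells with alpelisib were also set against EV, which shares EV or treated libraries with the contrasts above. In DLD-1, 18 genes were lower than in EV and 1 higher, against 20.2% and 9.71% of all genes tested, with a median of -0.32. BUB1 was lowest relative to EV, at -1.06 ± 0.16, adjusted p = 0.000178 by limma, with 22.6 ± 2.02 TPM with LIN28B and alpelisib and 48.6 ± 9.55 TPM in EV (SD, n = 3 each). The passenger complex scaffold INCENP (-0.82 ± 0.16, adjusted p = 0.00152), AURKA (-0.76 ± 0.14, adjusted p = 0.000714), CDC25B (-0.70 ± 0.08, adjusted p = 1.45e-05), BUB1B, which encodes the checkpoint protein BUBR1 (-0.75 ± 0.15, adjusted p = 0.00159), PRC1 (-0.75 ± 0.17, adjusted p = 0.00431) and MKI67 (-0.64 ± 0.13, adjusted p = 0.00189) were lower too. AURKB was the gene that was higher than in EV, at 0.31 ± 0.10, adjusted p = 0.0237. None of the 6 kinetochore genes passed, and 6 of 7 spindle and midzone genes did. Median-of-ratios scaling gave 13 lower and 4 higher. Over all 46, every treated library lay below every EV library for 28 genes and above for 4, against 28.5% and 16.4% of all genes. Without EV replicate 1 the count was 11, and without LIN28B with alpelisib replicate 1 it was 12, both with no gene higher.

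Under the LoVo label the genes ended on both sides of EV, with 9 higher and 6 lower (32.2% and 14.7% of all genes tested) and a median of 0.03. CDC25C had 11.4 ± 1.73 TPM with LIN28B and alpelisib and 4.50 ± 0.784 TPM in EV (SD, n = 3 each), a change of 1.17 ± 0.13, adjusted p = 1.65e-06 by limma. KIF11 (0.81 ± 0.11, adjusted p = 8.98e-06), TOP2A (0.57 ± 0.08, adjusted p = 2.75e-05) and NDC80 (0.55 ± 0.11, adjusted p = 0.000533) were also higher. CDC25B had 36.6 ± 0.824 TPM with LIN28B and alpelisib and 71.5 ± 6.49 TPM in EV, a change of -0.94 ± 0.08, adjusted p = 4.82e-08, and UBE2C, PTTG1, CDC20, KIF14 and PRC1 were the others lower. In 6 genes every treated library was above every EV library and in 6 every one was below (32.5% and 16.3% of all genes), and the groups overlapped for the other 34. Median-of-ratios scaling moved the median of all genes by -0.20 and the counts to 4 higher and 15 lower. With it CDC25C, KIF11, TOP2A and NDC80 were the 4 higher, and CDK1, CCNB1 and MKI67 were among the 15 lower. TPM without mitochondrial transcripts gave 4 higher and 14 lower, and a fit of these groups alone gave 4 higher and 2 lower.

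**Figure D5:**
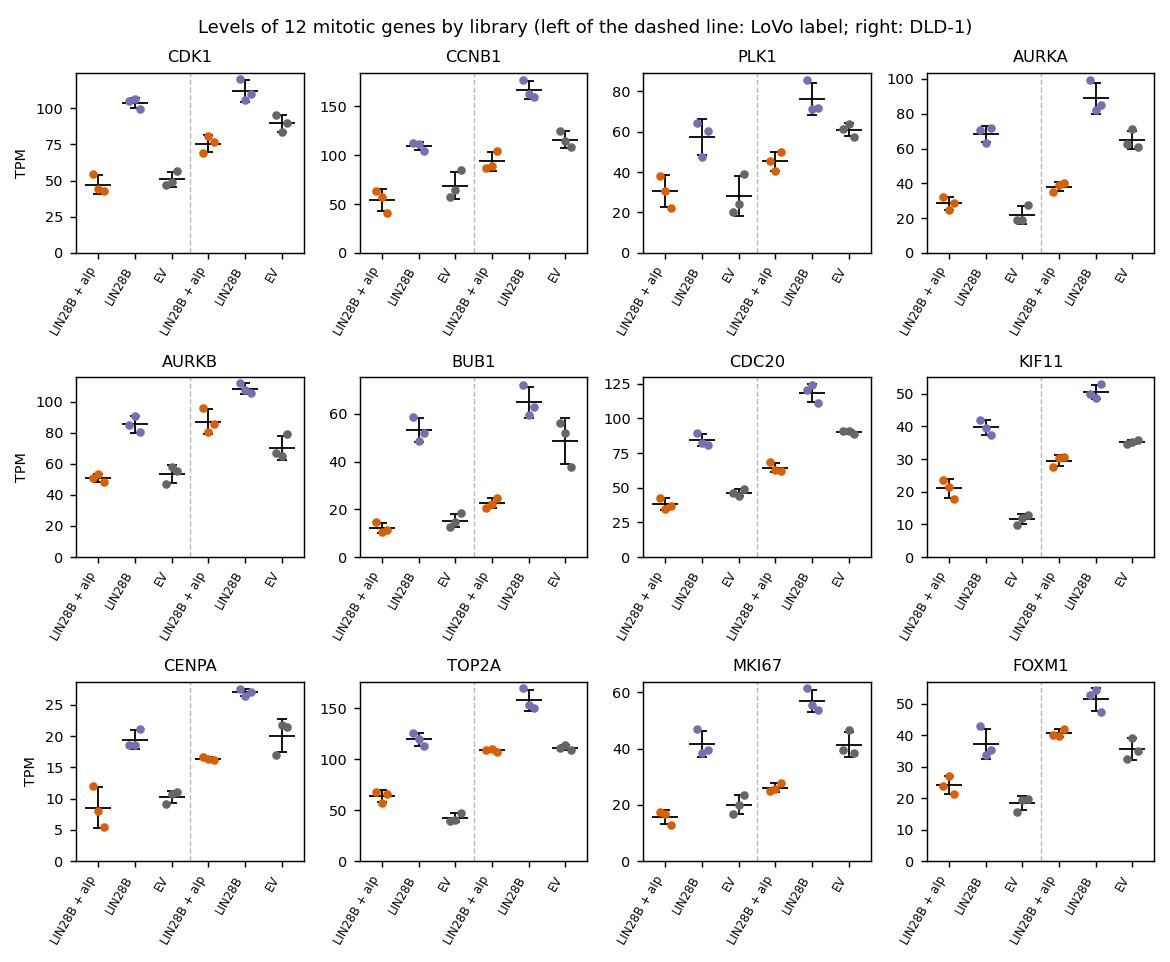
TPM of 12 genes in each library, by group, with LIN28B and alpelisib left of LIN28B and LIN28B left of EV in each line; horizontal bars are group means. All 12 are lower with alpelisib than in untreated LIN28B libraries under both labels. In DLD-1 the alpelisib libraries overlap EV for TOP2A and lie above EV for AURKB and FOXM1.

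The lines differed before LIN28B. In LoVo EV relative to DLD-1 EV, 43 of 46 genes were lower and none higher (38.2% of all genes tested were called lower), with a median of -0.92, against -0.20 over all genes. In 42 genes every LoVo EV library was below every DLD-1 EV library (38.6% of all genes). BUB1 had 15.2 ± 2.82 TPM in LoVo EV and 48.6 ± 9.55 TPM in DLD-1 EV, and CDC25C 4.50 ± 0.784 TPM in LoVo EV and 23.4 ± 0.275 TPM in DLD-1 EV (SD, n = 3 each). Both were lower in LoVo EV, with log2 changes of -1.61 ± 0.16 and -2.16 ± 0.13. CDC25B, UBE2C and CENPE did not pass. All 7 colon epithelium markers were lower too, with a median of -1.33. Their summed levels were 4742 to 5322 TPM in LoVo EV and 8497 to 8657 TPM in DLD-1 EV. COL1A1 was higher (1.88 ± 0.25), among 17.3% of all genes. The mitochondrial share was 24.0, 23.1 and 14.5% in LoVo EV libraries and 9.23, 10.2 and 11.8% in DLD-1 EV libraries. LoVo EV replicate 3, at 14.5%, was the highest of its group for 39 of the 46 genes. The part of these values in the result was not tested. Median-of-ratios scaling moved the median of all genes by 0.24 and gave 39 lower and 1 higher.

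Between the LIN28B groups the gap was smaller. In LoVo-labelled LIN28B relative to DLD-1 LIN28B, 20 genes were lower and none higher (6.02% of all genes were called lower), with a median of -0.34. KIF14, KIF20A and KIF2C are kinesins of cytokinesis and chromosome alignment, and KIF14 had 6.38 ± 0.531 TPM in LoVo-labelled LIN28B and 8.99 ± 0.709 TPM in DLD-1 LIN28B (SD, n = 3 each), a change of -0.44 ± 0.12, adjusted p = 0.0206 by limma. TTK had 18.6 ± 1.11 TPM in LoVo-labelled LIN28B and 41.6 ± 1.498 TPM in DLD-1 LIN28B, a change of -1.12 ± 0.12, adjusted p = 4.19e-06, and AURKB 85.4 ± 5.22 TPM in LoVo-labelled LIN28B and 108 ± 3.62 TPM in DLD-1 LIN28B, a change of -0.34 ± 0.10, adjusted p = 0.0257. MKI67 and TOP2A were lower, at -0.44 and -0.40, while the groups overlapped for CDK1, at -0.11. The count was 14, 11 and 8 without LoVo-labelled LIN28B replicate 1, 2 or 3, and 10, 10 and 11 without DLD-1 LIN28B replicate 1, 2 or 3.

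Genes that work beside the 46 were taken from 8 further lists, and their counts are by limma over all genes tested. With LIN28B relative to EV in DLD-1, 7 of 31 other kinetochore genes, 1 of 18 condensin and cohesin genes, 2 of 20 centrosome genes and 1 of 9 cytokinesis genes rose, and none of them fell, where 1.21% of all genes were called higher. They include CENPU, of the inner kinetochore (0.54 ± 0.10, adjusted p = 0.0125), SMC4, a condensin ATPase (0.52 ± 0.10, adjusted p = 0.0100), STIL, needed for centriole duplication (0.65 ± 0.13, adjusted p = 0.0120) and KIF4A, a chromosome-bound kinesin (0.64 ± 0.14, adjusted p = 0.0232). Under the LoVo label 28, 15, 18 and 8 of the same lists rose and none fell, where 40.3% of all genes were called higher. SMC2, the partner of SMC4, was the clearest, at 32.2 TPM in LoVo-labelled LIN28B and 9.49 TPM in EV (1.66 ± 0.09, adjusted p = 4.77e-10). Of 12 genes of the MuvB, B-MYB and DREAM complexes, 1 rose in DLD-1 and 8 under the LoVo label, to be read against the same shares. MYBL2, which encodes B-MYB, was at 37.0 TPM in LoVo-labelled LIN28B and 14.5 TPM in EV (1.31 ± 0.13, adjusted p = 4.49e-07). Of 17 APC/C genes 2 rose in DLD-1 and 12 under the LoVo label, with FZR1, the late mitotic APC/C activator, at 1.11 ± 0.12, adjusted p = 5.47e-07 in the second.

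With alpelisib the counts differed between lists, and 21.9% of all genes were called lower and 9.05% higher in DLD-1. There the counts lower were 14 of 31 other kinetochore genes, 14 of 18 condensin and cohesin genes, 12 of 20 centrosome genes, 8 of 9 cytokinesis genes, 7 of 12 MuvB genes and 7 of 17 APC/C genes, with 1 APC/C gene higher. Under the LoVo label, where 24.6% of all genes were called lower and 15.1% higher, they were 24, 13, 17, 8, 7 and 8 in the same order, with 1 higher in each of the kinetochore, centrosome and cytokinesis lists. CEP55, a protein of the abscission site, is in both the centrosome and the cytokinesis list. MYBL2 was lower in both labels, at -0.70 ± 0.13, adjusted p = 0.00117 in DLD-1 and -1.09 ± 0.13, adjusted p = 1.40e-05 under the LoVo label. HJURP, the chaperone that loads CENPA, was at -0.81 ± 0.13, adjusted p = 0.000331 and -1.01 ± 0.13, adjusted p = 2.24e-05, and ANLN, the cytokinetic ring scaffold anillin, at -0.86 ± 0.10, adjusted p = 2.50e-05 and -1.0003 ± 0.10, adjusted p = 2.27e-06.

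S phase genes gave different counts under the labels. With LIN28B relative to EV, 2 of 12 rose in DLD-1 and 10 under the LoVo label (all genes: 1.21% and 40.3%), and none fell. With alpelisib, 1 of 12 fell in DLD-1, RRM2 of ribonucleotide reductase (-1.51 ± 0.23, adjusted p = 0.000229), and 11 of 12 fell under the LoVo label, with RRM2 at -2.25 ± 0.23, adjusted p = 2.49e-06, MCM6 of the replicative helicase at -1.25 ± 0.17, adjusted p = 3.45e-05 and PCNA, the polymerase clamp, at -0.59 ± 0.09, adjusted p = 0.000107. Of all genes, 21.9% were called lower in DLD-1 and 24.6% under the LoVo label. Tested as a difference between the labels, 1 of the 12 passed, and the other 11 were not shown to differ. A list of 11 regulators of CDK1 and of the phosphatase PP2A-B55 mixed genes that restrain mitotic entry, such as CDKN1A, SFN, WEE1 and the B55 subunit PPP2R2A, with MASTL, ENSA and ARPP19, which promote it by inhibiting PP2A-B55. With LIN28B, 1 rose (MASTL, 0.53 ± 0.13, adjusted p = 0.0390) and 1 fell (SFN) in DLD-1, where 1.21% and 1.32% of all genes were called. In the LoVo-labelled libraries 7 rose, among them MASTL, ENSA and ARPP19, and 2 fell, against 40.3% and 16.5% of all genes. With alpelisib 7 of the 11 fell in DLD-1 and 8 under the LoVo label, against the 21.9% and 24.6% of all genes, MASTL among them in both, and none rose. CDKN1A, the CDK inhibitor p21, was at 6.52 TPM with alpelisib and 35.3 TPM without in DLD-1 (-2.28 ± 0.13, adjusted p = 1.86e-08), and at 26.3 TPM with alpelisib and 65.1 TPM without under the LoVo label (-1.28 ± 0.13, adjusted p = 2.50e-06). SFN, the 14-3-3 sigma protein that holds CDK1 in the cytoplasm, was lower with LIN28B than in EV, at -0.51 ± 0.08, adjusted p = 0.00345 in DLD-1 and -0.92 ± 0.08, adjusted p = 9.01e-08 under the LoVo label. CDKN1A therefore fell beside the mitotic genes in treated cells, and no part of it in their fall was tested.

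Members were also set side by side by promoter. The 28 genes with a CHR core and the 11 without had median changes with LIN28B of 0.42 and 0.44 in DLD-1, and of 1.11 and 0.79 under the LoVo label. With alpelisib the medians were -0.75 and -0.78 in DLD-1, and -1.05 and -1.02 under the LoVo label. The sets rest on exact matches to TTTGAA or TTCAAA in the window searched, so they do not tell which members use the element. No test was made of these sets.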

How the data were processed

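Poly(A)-selected RNA from 18 libraries was measured. The deposited values are TPM per gene, and per the submitters' processing notes STAR 2.7.10, Picard, HTSeq and DESeq2 were used with hg38; their order, the annotation release, strand use and gene lengths are not given in the sources used here. A TPM value keeps no read depth, so depth is unknown and no counting error is given; 23010 to 25501 genes were above 0 in each library. Genes at 1 TPM or more in at least 3 libraries (18537, of which 2764 were listed at 0 in a library) were fitted as log2(TPM + 1) by limma (version 3.58.1, on R 4.3.3), all 6 groups in 1 model with 12 residual degrees of freedom, a mean-variance trend and Benjamini-Hochberg adjustment over all genes. The fit was also run on simulated data for LIN28B against EV in DLD-1, with noise drawn independently for each gene and library. Its outcome is not given here. Groups come from the sample titles. Genes named with values were the 3 largest called rises and falls per LIN28B and alpelisib contrast, 12 fixed genes, and up to 3 genes with the smallest p per further list; others named were chosen after their values were seen. The members and lists were chosen with earlier results of these data known. Symbols follow GENCODE and RefSeq tables.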

Additional observations from a re-analysis of the deposited data

Results flagged for a closer look

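In 27 of the 46 genes the change with LIN28B relative to EV differed between the LoVo label and DLD-1 by a test of the difference itself (limma interaction, adjusted p under 0.05), and in all 27 it was the larger under the LoVo label. Of all genes tested, 30.4% were called larger under the LoVo label. With median-of-ratios scaling 18 members were called in either direction. A difference between lines and an effect of LIN28B cannot be told apart under this label. The differences below are LoVo label minus DLD-1 on the log2(TPM + 1) scale. Among mitotic entry genes the differences were CDK1 0.70, CCNA2 1.04, CCNB2 0.99, CDC25C 1.63, FOXM1 0.46 and AURKA 1.20. Among passenger complex and checkpoint genes the differences were INCENP 0.98, BIRC5 0.57, CDCA8 0.73, BUB1 1.33 and BUB1B 1.02. Among anaphase, cohesion and kinetochore genes the differences were CDC20 0.46, CDCA5 0.65, SGO1 0.45, NDC80 0.64 and SKA1 0.75. Among kinesin genes the differences were KIF11 1.20, KIF18A 0.66 and KIF2C 0.94. Among spindle and midzone genes the differences were TPX2 0.88, NUSAP1 0.64, HMMR 0.90, DLGAP5 0.99, SPAG5 0.95 and ECT2 1.11. Among chromosome genes the differences were TOP2A 0.97 and MKI67 0.57. LoVo EV libraries had mitochondrial shares of 14.5 to 24.0%, and the part of that share in these differences was not tested.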

How the results depend on the processing

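For members called in the LIN28B and alpelisib contrasts, direction held in all settings with 1 exception. UBE2C turned negative (-0.0222) for LIN28B under the LoVo label with median-of-ratios scaling. CDC25B, not called in that contrast, also turned negative with this scaling (-0.29) and on TPM without mitochondrial transcripts. Without the 2 LoVo EV libraries of high mitochondrial share, its last EV library (78.4 TPM) stood above the LIN28B mean (75.2 TPM). Leaving out each library in turn gave 4 to 8 called members for LIN28B in DLD-1, 44 to 45 for LIN28B under the LoVo label, 34 to 39 and 44 to 46 for alpelisib in DLD-1 and under the LoVo label, 11 to 17 and 12 to 18 for LIN28B with alpelisib against EV, 42 to 43 between EV groups, 8 to 14 between LIN28B groups, 22 to 30 for the LIN28B difference and 0 to 1 for the alpelisib difference. Without a filter, 12 members were called between the LIN28B groups, against 20. A fit of the compared groups alone called 6 for LIN28B with alpelisib against EV under the LoVo label, against 15, and 1 for the alpelisib difference, against 0, where scaling called 2. Of the alternatives added after seeing the data, TPM without mitochondrial transcripts called 22 for LIN28B in DLD-1 and 1 for the alpelisib difference, and omitting the 2 LoVo EV libraries of high mitochondrial share, with the last EV library assumed to vary like the other groups, called 13 for the LIN28B difference. Deviations of same-numbered libraries from their group means correlated at -0.302 to 0.119 over 18 pairs, and 6 of 36 library and group matches were closest to their own number, so replicate numbers do not pair the libraries. With the replicate block, 5 members were called for LIN28B in DLD-1 and 12 between the LIN28B groups. Over all genes, LIN28B in DLD-1 gave 469 calls, against 290 with no filter, 183 with the compared groups alone, 170 with the replicate block and 185 to 228 with a library left out; the alpelisib difference gave 157, against 262 with scaling, 41 with the block and 82 to 149 with a library left out. Where a count moved, the cause was not tested. Depth is unknown from TPM.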
